A study of Mus musculus with 3 samples.

Results

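The transcripts of 10 genes that act directly downstream of the receptor RANK were measured in cultures of PyMT mammary tumor cells with and without its ligand RANKL (RL). The genes encode TRAF adaptors (*Traf1*, *Traf2*, *Traf3*, *Traf5* and *Traf6*), the cellular IAPs (*Birc2* and *Birc3*), the kinase NIK (*Map3k14*) and the catalytic subunits of the IκB kinase (*Chuk* and *Ikbkb*). They were chosen by these roles with earlier results of these data known, and every array probe whose transcript accession belonged to these symbols was used. This gave 12 probes for 10 genes, among 21743 genes and transcripts tested. Of the 21743, 14043 had a gene symbol, and all 21743 are called genes below. PyMT mice carry the polyoma middle T oncogene under the MMTV promoter, which drives it in the mammary epithelium. Cells of 3 tumors (tumors 1, 2 and 3) were seeded on Matrigel in medium with serum, EGF, insulin and cholera toxin. The methods describe such cultures as made from tumor transplants, with RL added 24 h after plating. From each tumor, 1 culture received RL for 24 h and 1 untreated culture was the control. The deposited labels give the RL dose as 1000 µg/ml and the methods as 1 µg/mL. The strain and age of the mice are not given in the labels of these samples.

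RANK has no enzymatic activity of its own and signals through TRAF proteins that bind its cytoplasmic tail. TRAF6 leads to the kinase TAK1 and to the IκB kinase complex, which marks IκB proteins for degradation and frees canonical NF-κB. In resting cells, TRAF2 and TRAF3 bring the cellular IAPs to NIK, which is then ubiquitinated and degraded. When receptors take up this complex, NIK accumulates and activates IKKα, and the processing of p100 starts the non-canonical pathway. In the mammary gland, RANK and RL are known for their role in the expansion of the epithelium under progesterone, and IKKα is required there downstream of RANK.

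Both cultures of a tumor were hybridized on 1 array, and each value is the log2 ratio of RL over control within that array, where 0 means equal levels. RL was in Cy3 in tumors 1 and 3 and in Cy5 in tumor 2. All 3 arrays shared 1 slide and 1 scan. The methods describe dye swaps for each sample, but the files hold 1 array and thus 1 dye order per tumor. All 12 probes of the member genes were well above background in all 6 channels, so the filter on dim probes removed none of the 10 genes. None of these spots was saturated or marked as an outlier (0 of each). Their signal was at least 1.67 times the local background, a value that belonged to the dimmer of the *Traf2* probes. Between the ratios of tumors 1 and 3, Pearson's r was 0.45 over 21721 genes with a value on every array, where genes do not count as independent replicates. It was −0.11 between tumors 1 and 2 and −0.11 between tumors 2 and 3, so ratios were more alike where the dye order was the same. Because the dye orders were unequal in number, a difference between the dyes did not cancel in the mean of the 3 tumors, and values from a fit with a dye term are given beside it. With 3 arrays, the precision of every value is limited by their number.

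*Traf1*, *Traf2*, *Traf3* and *Birc3* were higher with RL in all 3 tumors, which are 4 of the 10 member genes, against 14.1% of all genes tested. With median centring, *Traf1* and *Traf2* alone (2 of 10, against 2.54% of all genes so treated) were above 0 in all 3 tumors, as *Traf3* was below 0 in tumors 1 and 3 and *Birc3* in tumor 3. As reported, none (0 of 10) was lower in all 3 tumors, against 13.5% of all genes. In such bulk RNA, a change in the share of a cell type and a change in RNA per cell cannot be told apart. The median log2 change of the 10 genes was 0.23, with 0.40, 0.13 and 0.09 in tumors 1, 2 and 3, while that of all genes tested was −0.00089. The median of the 10 genes was 0.11 without tumor 1, and 0.088 with median centring in place of loess, where the median of all genes was −0.11. By limma at an adjusted p under 0.05, 0 of the 10 genes were higher and 0 were lower, where 0.0046% and 0.023% of all genes passed. An unadjusted p under 0.05 was reached by 4 of 10 as higher, against 3.58% of all genes, and by 0 as lower, against 3.56%. A rank product of the 3 tumors, with a proportion of false positives (pfp) under 0.05, put 2 of 10 higher (*Traf1* and *Traf2*) against 0.17% of all genes, and 0 lower against 0.23%. With a dye term beside RL in limma, *Traf1*, *Traf2*, *Traf3* and *Birc3* passed as higher, 4 of 10 against 0.694% of all genes, and 0 were lower against 0.878%. As only tumor 2 had RL in Cy5, the RL estimate of this fit lies midway between tumor 2 and the mean of tumors 1 and 3. Its dye coefficient sets tumors 1 and 3 against tumor 2, so dye and tumor cannot be told apart in it. The dye-term fit had 1 residual degree of freedom, so its errors rest mostly on the spread shared by all genes. By limma, that spread was weighted with 50.6 prior degrees of freedom. With a spatial loess of degree 1 in place of 2 these were 22.3, and the same 4 member genes passed, with adjusted p of 0.000212 for *Traf1*, 0.0023 for *Traf2*, 0.00803 for *Traf3* and 0.00451 for *Birc3* from limma.

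**Figure D1:**
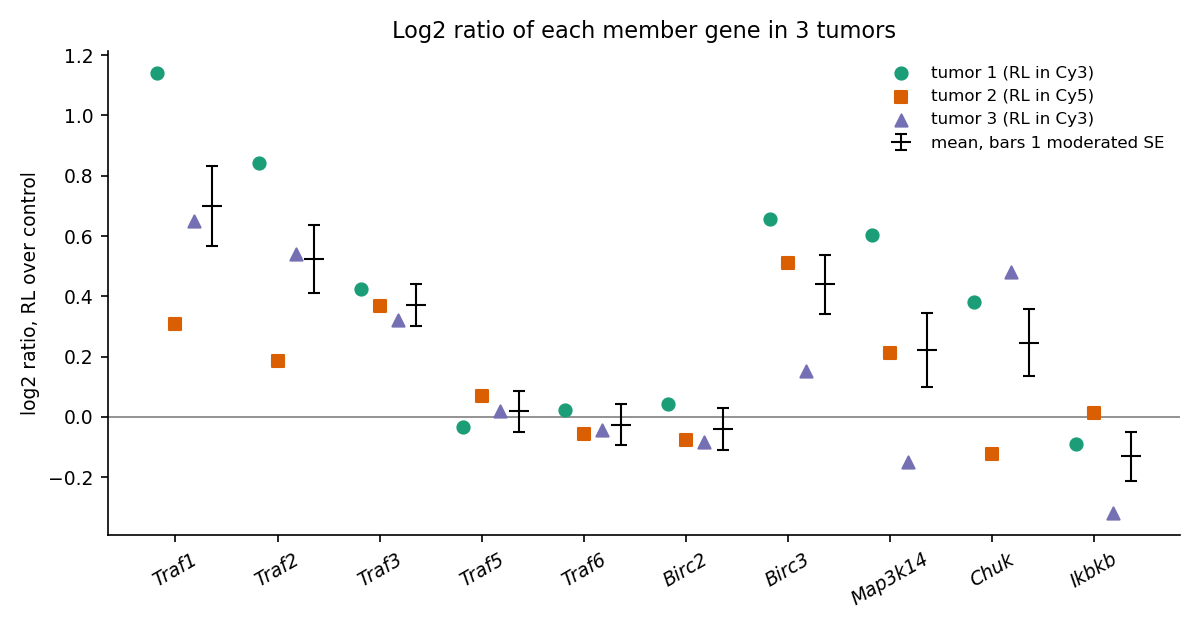
Log2 ratio of RL over control (vertical axis) of the 10 member genes in tumors 1, 2 and 3, with the dye of the RL sample in the legend, and the mean with bars of 1 moderated SE from limma. All 3 points lie above 0 for *Traf1*, *Traf2*, *Traf3* and *Birc3*, and tumor 1 has the highest point of each of these genes.

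The promoters of the 4 genes that were higher in all 3 tumors are shown because target genes of NF-κB carry binding sites for it, and the windows differ in what they hold. The windows run from 250 bases before to 50 bases after the start of the gene, 5′ to 3′ on the strand of the gene, from RefSeq on GRCm38.p6. They lie at chr2:34961723-34962022 (minus strand) for *Traf1*, chr2:25546891-25547190 (minus) for *Traf2*, chr12:111166120-111166419 (plus) for *Traf3* and chr9:7873121-7873420 (minus) for *Birc3*. Capitals mark matches to a loose form of the NF-κB site, GGG and CC with any 5 bases between them, on either strand.
Traf1: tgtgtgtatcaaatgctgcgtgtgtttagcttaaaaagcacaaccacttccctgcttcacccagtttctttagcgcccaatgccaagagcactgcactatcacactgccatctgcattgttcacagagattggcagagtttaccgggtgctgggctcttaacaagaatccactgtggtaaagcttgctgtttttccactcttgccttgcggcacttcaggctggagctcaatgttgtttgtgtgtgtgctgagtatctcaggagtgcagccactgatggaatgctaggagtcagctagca
Traf2: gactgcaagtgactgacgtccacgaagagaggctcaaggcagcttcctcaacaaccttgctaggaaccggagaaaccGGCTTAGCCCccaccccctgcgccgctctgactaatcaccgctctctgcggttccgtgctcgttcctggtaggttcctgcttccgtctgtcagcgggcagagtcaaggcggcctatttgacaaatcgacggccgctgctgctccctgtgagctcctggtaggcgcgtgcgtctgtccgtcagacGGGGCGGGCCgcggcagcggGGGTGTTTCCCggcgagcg
Traf3: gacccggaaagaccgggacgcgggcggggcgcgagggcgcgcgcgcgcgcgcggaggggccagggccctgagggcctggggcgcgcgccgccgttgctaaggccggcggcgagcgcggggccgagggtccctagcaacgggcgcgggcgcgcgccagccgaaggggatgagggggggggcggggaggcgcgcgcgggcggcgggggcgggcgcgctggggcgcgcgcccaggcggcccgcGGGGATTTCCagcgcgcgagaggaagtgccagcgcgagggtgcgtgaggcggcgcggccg
Birc3: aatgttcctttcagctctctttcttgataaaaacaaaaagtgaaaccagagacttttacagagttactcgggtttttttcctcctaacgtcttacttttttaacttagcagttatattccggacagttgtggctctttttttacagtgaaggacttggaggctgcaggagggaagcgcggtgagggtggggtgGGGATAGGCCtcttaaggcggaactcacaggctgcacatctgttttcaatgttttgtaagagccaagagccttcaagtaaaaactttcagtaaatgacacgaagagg

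The *Birc3* window held 1 match, from −57 to −48 relative to the start, and the *Traf3* window held 1 match, from −10 to −1. The *Traf2* window held 4 matches, 3 of them after the start, where 2 overlapped each other on opposite strands. The *Traf1* window held 0 matches, which says only that these letters do not occur in it. Of the 10 member genes, 9 had an entry in the promoter table and *Ikbkb* had none. The pattern was found for 7 of these 9 genes (*Traf2*, *Traf3*, *Traf5*, *Traf6*, *Birc3*, *Map3k14* and *Chuk*), and not in either window of *Birc2*. A match is a description, not a site or a cause, and the pattern was present in 50.8% of all 32851 promoters of the table.

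*Traf1* encodes the TRAF protein without a RING domain, which joins complexes of TRAF2 and cellular IAPs, and it is a known target gene of NF-κB. Its normalized log2 intensity was 9.10, 9.67 and 9.34 in the control channels of tumors 1, 2 and 3 and 10.24, 9.98 and 9.99 in the RL channels. Every RL level was above every control level, with the widest step in tumor 1, where the control was lowest. Log2 ratios were 1.14 (tumor 1), 0.31 (tumor 2) and 0.65 (tumor 3). The mean log2 change was 0.70 (SE 0.13, 95% interval 0.40 to 1.00, n = 3 tumors), or 1.62-fold, and it ranked 9 of 21743 genes from the highest. The adjusted p from limma was 0.219 and the pfp was 0.00125. With a dye term, the log2 change was 0.60 (SE 0.08) with an adjusted p of 6.15e-07 from limma. Without tumor 1, the mean log2 ratio was 0.48.

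*Traf2* encodes the adaptor that carries the cellular IAPs to TRAF3 and NIK. Its brighter probe had log2 intensities of 12.49, 13.14 and 12.72 in the controls of tumors 1, 2 and 3 and of 13.34, 13.33 and 13.26 with RL. The SD of the RL levels was 0.04 and that of the control levels 0.33, and again every RL level was above every control level. The control of tumor 2, the highest of the 3, was read in Cy3 and the other controls in Cy5, so the dye and the tumor cannot be told apart in this order. Log2 ratios were 0.84 (tumor 1), 0.19 (tumor 2) and 0.54 (tumor 3). The mean log2 change was 0.52 (SE 0.11, n = 3 tumors), with an adjusted p of 0.277 from limma and a pfp of 0.0121. With a dye term it was 0.44 (SE 0.08), with an adjusted p of 0.000144 from limma. A dimmer *Traf2* probe gave log2 ratios of 0.24, 0.23 and 0.12 in tumors 1, 2 and 3. Both probes thus had ratios above 0 in each tumor, and the dimmer probe had the smaller mean (0.20).

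*Traf3* encodes the adaptor that binds NIK itself and on which its degradation depends. Its log2 intensity was 11.67, 12.09 and 12.26 in the controls of tumors 1, 2 and 3 and 12.09, 12.46 and 12.58 with RL. Control and RL levels overlapped, as the control levels spread over 0.59 between arrays, but within each tumor the RL level was the higher. Tumor, array and dye cannot be told apart in that spread. Log2 ratios were 0.42 (tumor 1), 0.37 (tumor 2) and 0.32 (tumor 3). These ratios had an SD of 0.05, against 0.42 for *Traf1* and 0.33 for *Traf2*. The mean log2 change was 0.37 (SE 0.07, n = 3 tumors), with an adjusted p of 0.207 from limma and a pfp of 0.134. With a dye term it was again 0.37 (SE 0.07), with an adjusted p of 0.00134 from limma. Its dye coefficient, which sets tumors 1 and 3 (RL in Cy3) against tumor 2 (RL in Cy5), was 0.0022.

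The other adaptors of the group had ratios near 0. *Traf5* encodes a close relative of TRAF2 and TRAF3 with a role in several TNF receptor pathways. Log2 ratios were −0.03 (tumor 1), 0.07 (tumor 2) and 0.02 (tumor 3), with a mean of 0.02 (SE 0.07, n = 3 tumors). *Traf6*, the adaptor of the canonical branch that RANK shares with Toll-like and interleukin-1 receptors, had log2 ratios of 0.02, −0.06 and −0.04 in tumors 1, 2 and 3. Its mean was −0.03 (SE 0.07), with a 95% interval from −0.18 to 0.13. The interval of *Traf5* was −0.14 to 0.17. For both genes the tumors fell on both sides of 0, and the adjusted p from limma was 0.972 for *Traf5* and 0.959 for *Traf6*. Control levels of *Traf6* ranged from 8.78 in tumor 2 to 9.32 in tumor 3, a wider range than any of its ratios. The promoter windows of *Traf5* and *Traf6* held matches to the pattern given above, as did those of *Traf2*, *Traf3* and *Birc3*. The windows of *Traf1*, the gene with the largest mean, and of *Birc2* held 0. The pattern was present in 50.8% of all promoters.

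**Figure D2:**
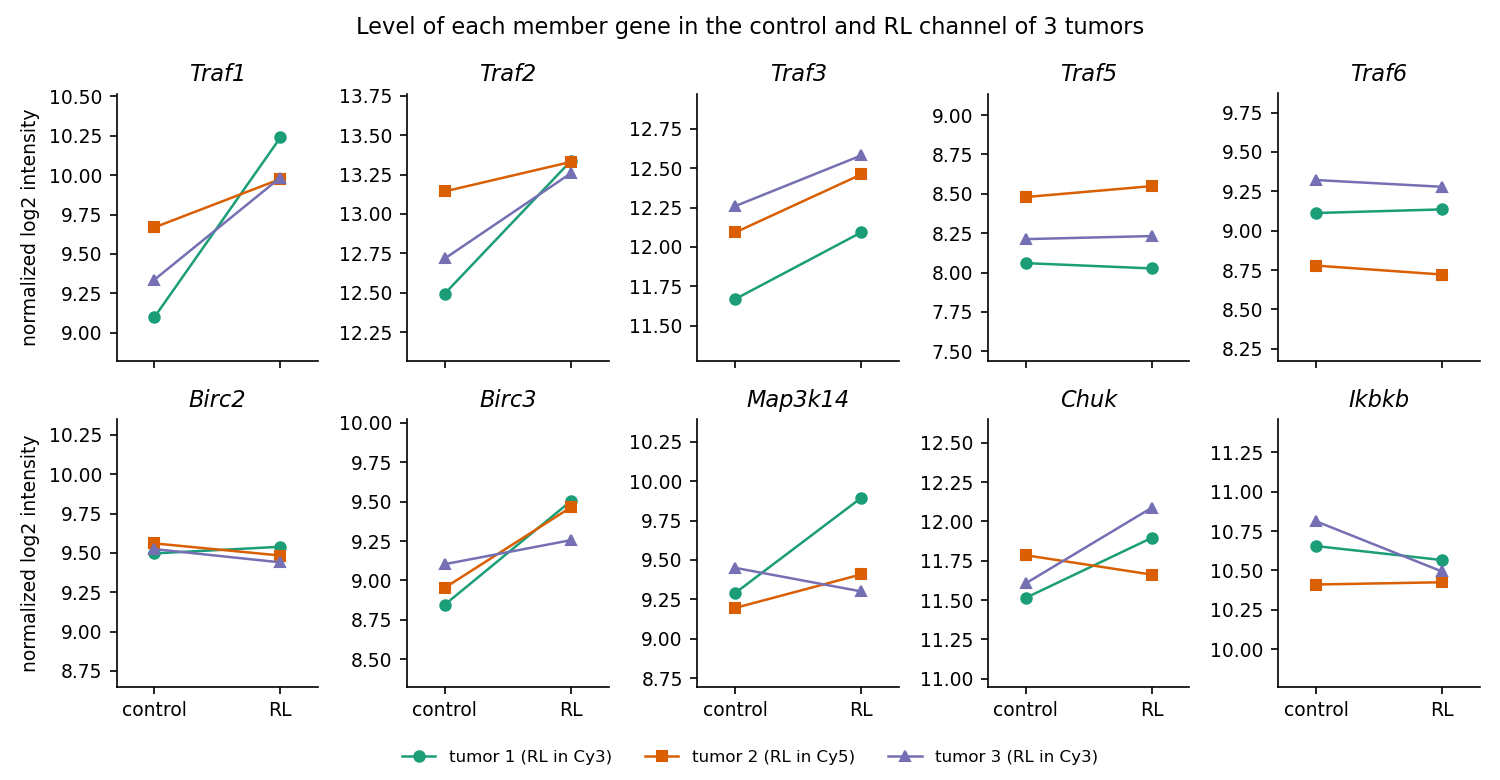
Normalized log2 intensity (vertical axis, the same span in each panel) of the 10 member genes in the control and RL channels, with a line for each tumor and the dye of its RL sample in the legend. For *Traf1*, *Traf2* and *Birc3* each RL point lies above all control points, which held for 3 of 10 member genes.

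The cellular IAPs are ubiquitin ligases, and their genes *Birc2* (cIAP1) and *Birc3* (cIAP2) lie next to each other on chromosome 9 with 0 other genes of the RefSeq annotation between them. *Birc3*, a known NF-κB target gene, had control levels of 8.85, 8.95 and 9.10 in tumors 1, 2 and 3 and RL levels of 9.50, 9.46 and 9.26. All RL levels were above all control levels, and tumor 3 had the smallest step. Log2 ratios were 0.66 (tumor 1), 0.51 (tumor 2) and 0.15 (tumor 3). The mean log2 change of *Birc3* was 0.44 (SE 0.10, n = 3 tumors), with an adjusted p of 0.315 from limma and a pfp of 0.121. With a dye term it was 0.46 (SE 0.08), with an adjusted p of 0.000156 from limma. The tumors with RL in Cy3 were at both ends of its range, and with 1 array per tumor the dye and the tumor cannot be told apart.

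*Birc2* had log2 ratios of 0.04, −0.08 and −0.08 in tumors 1, 2 and 3, with a mean of −0.04 (SE 0.07, n = 3 tumors) and an adjusted p of 0.934 from limma. Its control levels, 9.50, 9.56 and 9.52, were the most alike of the 10 genes, with an SD of 0.03. RL levels of *Birc2* were 9.54, 9.48 and 9.44 and overlapped with them. The difference between the ratios of *Birc3* and *Birc2* in tumors 1, 2 and 3 was 0.62, 0.59 and 0.24. It was above 0 in 3 of 3 tumors, with a mean of 0.48 and an SD of 0.21. All RL levels were above all control levels for 3 member genes (*Traf1*, *Traf2* and *Birc3*), against 1.54% of all genes, and below them for 0, against 1.32%.

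*Map3k14* encodes NIK, the kinase of the non-canonical branch, whose amount is known to be set mainly by degradation of the protein. Its brighter probe had log2 ratios of 0.60, 0.21 and −0.15 in tumors 1, 2 and 3. The tumors thus differed in sign, and the mean of 0.22 (SE 0.12, n = 3 tumors; adjusted p = 0.78 from limma) was 0.03 without tumor 1. A dimmer probe gave −0.09, 0.22 and −0.28 in tumors 1, 2 and 3, with a mean of −0.05. The probes were alike in tumor 2 and apart in tumor 1, so no direction can be given for *Map3k14*. The positions of both probes in the transcript are not given in the array files.

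*Chuk* encodes IKKα, the kinase that NIK activates and that acts on p100. Log2 ratios were 0.38 (tumor 1), −0.12 (tumor 2) and 0.48 (tumor 3). The positive values were those of both arrays with RL in Cy3, and the negative value was that with RL in Cy5. The mean was 0.25 (SE 0.11, n = 3 tumors), or 0.13 without tumor 3, with an adjusted p of 0.709 from limma. With a dye term, the log2 change was 0.15 (SE 0.07) with an adjusted p of 0.483, and the dye coefficient was 0.28. The mean over the Cy3 arrays, 0.43, cannot be told apart from a dye effect. *Ikbkb*, which encodes IKKβ of the canonical branch, had log2 ratios of −0.09, 0.01 and −0.32 in tumors 1, 2 and 3. Its mean was −0.13 (SE 0.08; adjusted p = 0.803 from limma), the lowest of the 10 genes. It was −0.09 with a dye term and −0.04 without tumor 3.

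Placed in order of the mean log2 change, the genes ran from *Traf1* over *Traf2*, *Birc3*, *Traf3*, *Chuk*, *Map3k14*, *Traf5*, *Traf6* and *Birc2* to *Ikbkb*. This order holds for the brighter probe of each gene. The dimmer probes of *Traf2* (mean 0.20) and *Map3k14* (mean −0.05) would have lower places in it. *Traf1* was above *Traf2* in 3 of 3 tumors, with a mean difference of 0.18 and an SD of 0.11. For each of the other neighbors in this order the tumors did not share a sign, and the mean difference was smaller than its SD. *Traf2* and *Birc3*, for example, differed by 0.08 with an SD of 0.37. The order of neighbors below *Traf1* was therefore not beyond the spread between tumors.

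The dye coefficient was larger in size than the RL estimate for 3 member genes (*Chuk*, *Ikbkb* and *Traf5*) and for 54.2% of all genes. It was 0.29 for *Traf1* and 0.25 for *Traf2*, below their RL estimates of 0.60 and 0.44. In tumor 2, with RL in Cy5 instead of Cy3, the ratios of *Traf1* and *Traf2* (0.31 and 0.19) were the smallest of the 3 tumors but above 0. *Traf3* and *Birc3* had ratios in tumor 2 (0.37 and 0.51) close to or above their means over the Cy3 arrays (0.37 and 0.40). The dye coefficients of *Traf3* and *Birc3* were 0.0022 and −0.05.

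**Figure D3:**
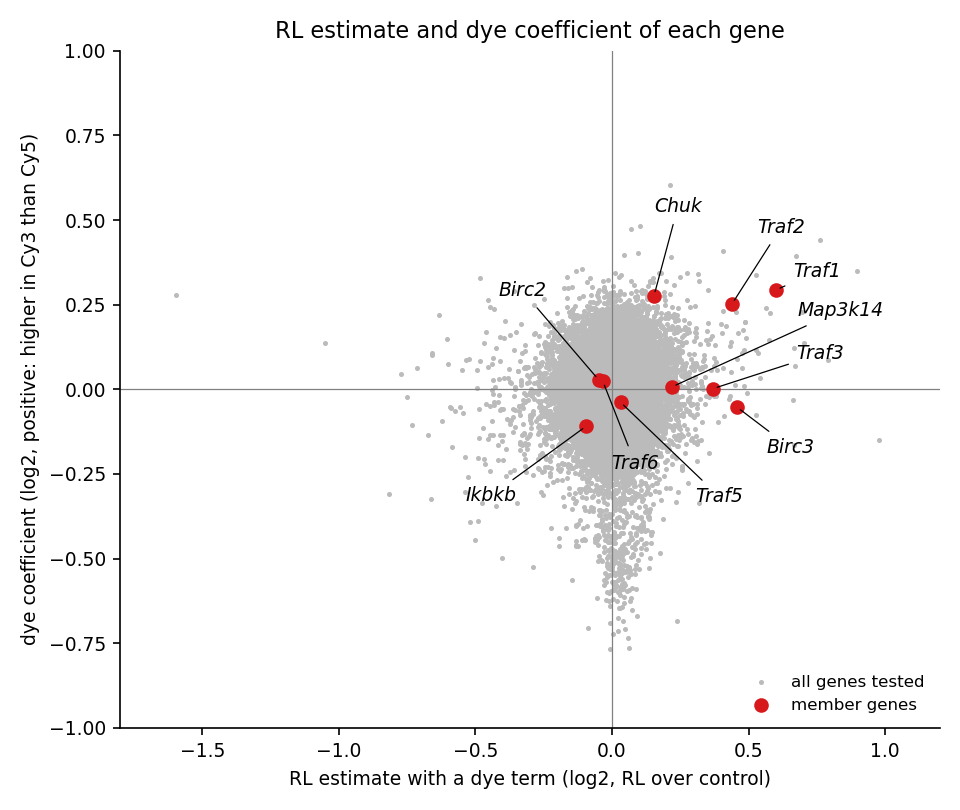
RL estimate from the fit with a dye term (horizontal axis, log2) against the dye coefficient (vertical axis, log2), with all genes tested in grey and the 10 member genes in red. *Traf3* and *Birc3* lie to the right near a dye coefficient of 0, *Traf1* and *Traf2* lie to the right at 0.29 and 0.25, and *Chuk* lies at an RL estimate of 0.15 and a dye coefficient of 0.28.

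Among 106 other genes, which were the members and all tested genes of the pathway lists, those with the 3 log2 ratios nearest to *Traf1* by Euclidean distance were *Traf2* (0.34), *Nfkbie* (0.42), *Relb* (0.44), *Nfkbia* (0.46) and *Nfkb2* (0.48). Those nearest to *Traf2* were *Traf1* (0.34), *Tnfaip3* (0.36), *Mapk11* (0.39), *Junb* (0.42) and *Tnip1* (0.42), and *Rela* was at 0.43. All of these genes had their largest ratio in tumor 1, as *Traf1* and *Traf2* did.

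Other genes of the pathway were described in 10 lists, of which 97 of 108 genes were tested. By limma at an adjusted p under 0.05, 0 of the 97 were higher and 0 were lower, against 0.0046% and 0.023% of all genes. An unadjusted p under 0.05 was reached by 15 as higher, against 3.58% of all genes, and by 1 as lower, against 3.56%. The rank product put 3 of the 97 higher, against 0.17% of all genes, and the fit with a dye term 8, against 0.694%. Each put 0 lower, against 0.23% and 0.878% of all genes. Of the 8 genes, 4 encode NF-κB subunits or IκB proteins. That list had the highest median of the 10, 0.21. Of its 10 tested genes, 6 were above 0 in all 3 tumors and 0 below, against 14.1% and 13.5% of all genes. *Nfkbia*, which encodes IκBα, had log2 ratios of 1.47, 0.47 and 0.38 in tumors 1, 2 and 3 (mean 0.77, SE 0.18, and 0.42 without tumor 1; adjusted p = 0.332 from limma, and 2.97e-06 with a dye term, or 0.00238 with degree 1). *Nfkbie*, another IκB gene, had 1.31, 0.57 and 0.37 (mean 0.75, SE 0.15, and 0.47 without tumor 1; adjusted p = 0.24 from limma, and 6.2e-07 with a dye term, or 0.000965 with degree 1). *Nfkb2*, the gene of the p100 precursor, had 1.25, 0.43 and 0.19 (mean 0.62, SE 0.17, and 0.31 without tumor 1; adjusted p = 0.415 from limma, and 0.000102 with a dye term, or 0.013 with degree 1). *Relb*, which encodes the partner of the p52 made from p100, had 1.15, 0.29 and 0.21 (mean 0.55, SE 0.16, and 0.25 without tumor 1; adjusted p = 0.459 from limma, and 0.000701 with a dye term, or 0.0288 with degree 1). Like *Traf1*, these genes had their highest ratio in tumor 1 and were above 0 in the others.

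Deubiquitinases and A20-binding proteins, which remove or read the ubiquitin chains that TRAFs and cellular IAPs build, had a median of 0.06. Of these 8 genes, 3 were above 0 in all 3 tumors and 0 below, against 14.1% and 13.5% of all genes. *Tnip1* had log2 ratios of 0.50, 0.27 and 0.32 (mean 0.36, SE 0.07), and *Tnfaip3*, which encodes A20, had 0.65, 0.16 and 0.24 (mean 0.35, SE 0.10, and 0.20 without tumor 1). Both passed with a dye term, at an adjusted p of 0.00455 and 0.0239 from limma, but with a spatial loess of degree 1 *Tnip1* passed (0.0189) and *Tnfaip3* did not (0.0769). *Tnip3* had a mean of 0.20 and did not pass. Of 5 tested survival genes that are direct targets of NF-κB, with a median of −0.00084, *Sod2* had a mean of 0.28 (0.31, 0.29 and 0.25 in tumors 1, 2 and 3) and passed with a dye term (adjusted p = 0.0281 from limma), though not with degree 1 (0.0622). *Bcl2a1d* had 0.63, 0.12 and 0.15, with a mean of 0.30, or 0.14 without tumor 1, *Gadd45b* had a mean of −0.11, or −0.04 without tumor 2, and neither passed. Among 18 MAP kinases and AP-1 genes (median −0.03), *Mapk11*, which encodes p38β, had a mean of 0.40, or 0.26 without tumor 1, and passed with a dye term (adjusted p = 0.00299 from limma, or 0.024 with degree 1), while *Fos* and *Jund* had means of −0.15 and −0.13.

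**Figure D4:**
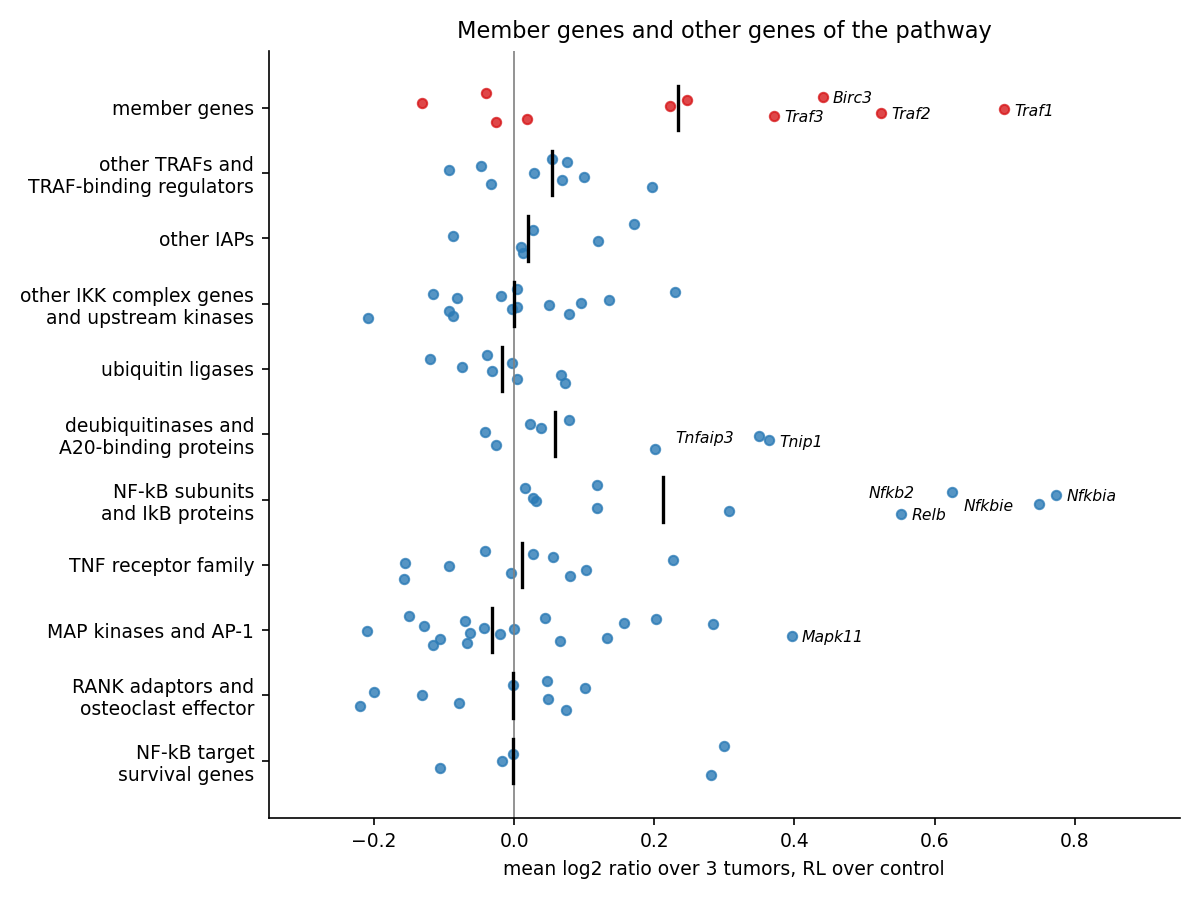
Mean log2 ratio of RL over control (horizontal axis) of each tested gene, with the 10 member genes in red, the genes of the 10 lists in blue and a black bar at the median of each group. Names are given to genes above 0.34, which belong to the member genes, the NF-κB and IκB genes, the A20 group and the MAP kinases.

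In the remaining lists the median lay between −0.02 and 0.05, and 0 genes passed with limma, the rank product or the dye term. The 9 tested TRAF relatives and TRAF-binding regulators had a median of 0.05. Of these, 4 were above 0 in all 3 tumors and 1 below, against 14.1% and 13.5% of all genes. *Traip* had a mean of 0.20, *Traf4* of 0.10 and *Traf3ip1* of −0.09, or −0.06 without tumor 3. Of 6 other inhibitors of apoptosis (median 0.02), *Birc5*, which encodes survivin, had a mean of 0.17 and *Naip2* of −0.09. The 14 other genes of the IκB kinase complex and its upstream kinases had a median of 0.00054. *Ikbke* had 0.44, 0.18 and 0.07 in tumors 1, 2 and 3, with a mean of 0.23, or 0.13 without tumor 1. Means were −0.09 for *Tab2* and −0.09 for *Tbk1*. The 8 ubiquitin ligases that act with TRAFs and cellular IAPs had a median of −0.02, and the genes *Rbck1* and *Sharpin* of the linear ubiquitin ligase had means of −0.12 and −0.08. *Sharpin* was −0.20 in tumor 1 and −0.01 on average without it. Receptors of the TNF family that bind TRAFs, 10 of them tested, had a median of 0.01, with −0.16 for *Tnfrsf19* and −0.09 for *Tnfrsf1a*, or −0.07 and −0.03 without tumor 1. The 9 tested adaptors and effectors known from RANK in osteoclasts had a median of −0.0020, with −0.20 for *Pik3r1*, 0.10 for *Nfatc1* and 0.05 for *Cbl*. The means of all genes in these lists were smaller in size than those of *Traf1*, *Traf2*, *Birc3* and *Traf3*.

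The cultures held the transcripts expected of mammary tumor cells, as all 9 epithelial markers were well above background in all 6 channels. All 7 fibroblast markers and 5 of 6 myeloid markers with a probe were so too, so other cells or their transcripts were present. In tumors 1, 2 and 3, epithelial medians were 0.12, −0.18 and −0.06, fibroblast medians −0.29, 0.15 and −0.05 and myeloid medians −0.10, 0.01 and −0.01. The median of 2 endothelial markers tested was −0.0038 over the 3 tumors. *S100a8* of the myeloid list had −0.78, −0.34 and 0.02 (mean −0.37, and −0.16 without tumor 1), with an adjusted p of 0.58 from limma. It was lower in the fit with a dye term (adjusted p = 0.015 from limma), and its value with a spatial loess of degree 1 is not given here. None of these 4 lists had a gene above 0 in all 3 tumors (0 genes), against 14.1% of all genes. *Elf5* of the epithelial list (−0.18, −0.18 and −0.06), *Pdgfra* of the fibroblast list (−0.38, −0.15 and −0.05) and *Cd68* of the myeloid list (−0.36, −0.14 and −0.18) were below 0 in each, against 13.5% of all genes. By limma, 0 of these markers passed the adjusted p. In tumor 1, where the member genes had their highest median, the epithelial median was above and the fibroblast median below 0. *Krt18*, the epithelial marker with the largest mean in size, had −0.72, 0.42 and −0.70 in tumors 1, 2 and 3 (mean −0.34). Its sign followed the dye order, and with a dye term its log2 change was −0.15 and its dye coefficient −0.56. *Krt18* was below 0 in tumor 1, as was *Elf5*, but for *Krt18* the dye and the tumor cannot be told apart. The part of these markers in the ratios of the member genes was not tested.

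Under other settings of the processing, the log2 change of *Traf1* lay between 0.56 and 0.75 and that of *Birc3* between 0.30 and 0.52. *Traf2* lay between 0.36, the mean over its probes, and 0.54, and *Traf3* between 0.24 and 0.40. With each tumor left out, *Traf1* lay between 0.48 and 0.90, *Traf2* between 0.36 and 0.69, *Traf3* between 0.35 and 0.40 and *Birc3* between 0.33 and 0.58. The lowest values of these 4 genes were thus above 0. *Traf6*, *Birc2* and *Ikbkb* were below 0 and *Map3k14* and *Chuk* above 0 in all 20 alternatives run, but these 5 genes passed the threshold only in the case of *Chuk* without tumor 2. *Traf5* was below 0 with median centring and without tumor 2.

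**Figure D5:**
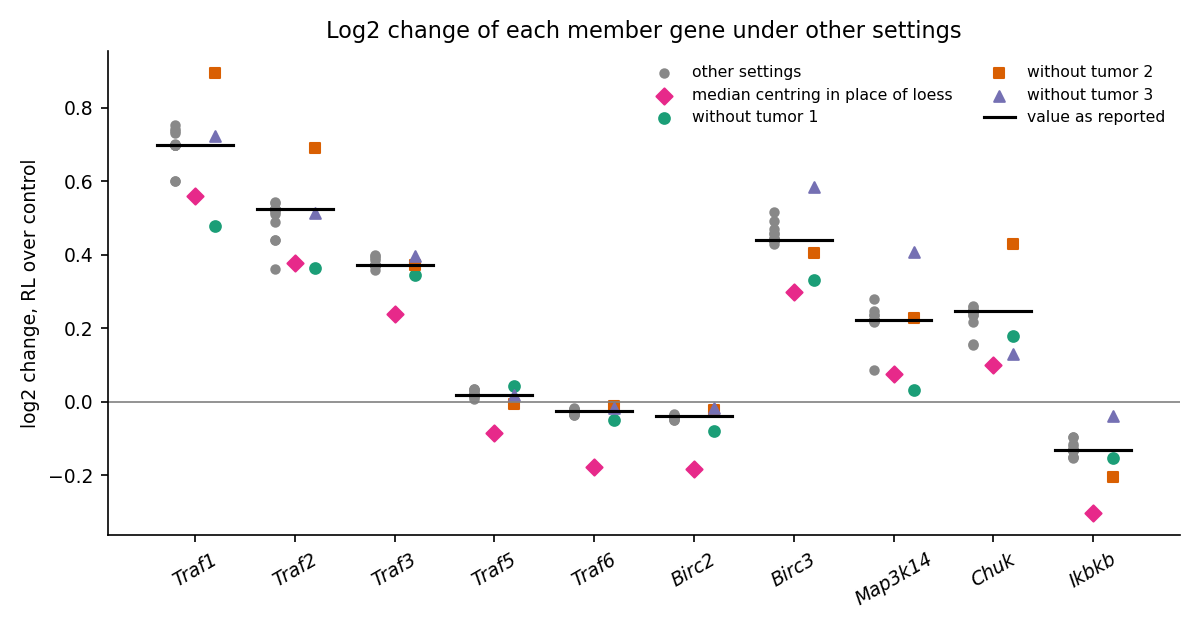
Log2 change of the 10 member genes (vertical axis) as reported (black line), under other settings (grey), with median centring in place of loess (diamond) and with each tumor left out (colors). *Traf1*, *Traf2*, *Traf3* and *Birc3* stay above 0 throughout, and median centring, which moved the median of all genes to −0.11, gives lower values for every member gene.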

How the data were processed

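Gene expression was measured in 3 pairs of PyMT tumor cell cultures on 2-color Agilent arrays. The authors read the arrays with Agilent Feature Extraction 10.7.3.1. The files of each array hold uncorrected medians of spot and background intensity for both dyes, and intensities that the same software had corrected for background and dye. The authors also deposited normalized ratios. The methods describe reported values as log2 of condition over control, whereas the deposited columns state no direction or centring and, compared with the intensities, were log2 of Cy5 over Cy3. Their medians as deposited were 0.0024, −0.0011 and 0.00069. Turned to RL over control by dye order, they had r of 0.961, 0.954 and 0.960 and slopes of 1.15, 1.17 and 1.15 against the values computed here.

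R 4.3.3 and limma 3.58.1 were used. Median intensities of all spots were corrected with normexp (offset 50) and control spots were left out. Intensity loess came first, a spatial loess of degree 2 over array positions (span 0.1) second and Aquantile between arrays last. Spots that the scanner software called outliers (204, 195 and 223) were left out. Levels per channel come from the normalized mean intensity and ratio. Probes were named through RefSeq accessions on GRCm38.p6, which matched 28026 of 55681. Probes well above background in all 3 RL or all 3 control channels were kept, and the brightest stood for each gene. Ratios, which pair both cultures of a tumor by the design of the arrays, were fitted with lmFit and eBayes over all genes and adjusted by the Benjamini-Hochberg method. The rank product used 1000 permutations and was written for this work, since the package named in the methods was not installed. Programs were tested on simulated data.

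Named genes were the 10 members, up to 3 genes of each list with the largest mean ratio in size and 1 sign on all 3 arrays or past the adjusted p, and the 5 genes nearest to each of the 2 members with the largest mean in size. The nearest genes were planned among the named ones, and all genes of the lists were taken after the values were seen. Genes of the pathway lists past the dye term, and markers past it or with 1 sign in all tumors, were named as well. *Krt18* was named as the epithelial marker with the largest mean in size. The members and lists were chosen with earlier results of these data known. Alternatives covered the dye term, the rank product, moderation, background correction, normalization, filters, probes, the deposited log2 ratios and each tumor left out. The degree of the spatial loess is not given in the methods. Values were first computed with degree 1, and degree 2, the default in R, was taken after they had been seen. Degree 1, without and with a dye term, was added as 2 alternatives. Results of a further list of cell markers are not reported here.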

Additional observations from a re-analysis of the deposited data

How the results depend on the processing

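Over 20 alternatives, 183 values of member genes kept their direction and side of the threshold, 15 passed the threshold in the same direction and 2 changed sign. Both sign changes were of *Traf5* (−0.085 with median centring, and −0.0071 without tumor 2 in a range of −0.0071 to 0.044). Alternatives with degree 1 were chosen after the data were seen.

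Against 1 gene higher and 5 lower by limma, the counts were 151 and 191 with a dye term, 99 and 130 with a dye term and a spatial loess of degree 1, and 37 and 50 by rank product. An intensity trend in the moderation gave 9 and 21 and robust moderation 7 and 12. The counts were 4 and 10 without background correction, and 6 and 11 with an offset of 10. Processed intensities and median centring gave 0 and 0, no filter on dim probes 0 and 3, a filter in all 6 channels 0 higher and the deposited ratios 2 higher. With a tumor left out, 0 to 680 were higher and 1 to 964 lower. The highest counts came without tumor 2. Both remaining arrays then had the same dye order, so RL and the dye cannot be told apart in them. The part of the dye, the tumor or the number of arrays in these counts was not tested. Member genes past the threshold were 4 with a dye term at either degree, 2 by rank product and 0 to 5 with a tumor left out. With median centring 2 of them were above 0 on all 3 arrays. Genes of the lists past it were 8 with a dye term, 6 with degree 1 besides, 3 by rank product and 0 to 15 with a tumor left out.

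The median of the ubiquitin ligases was −0.0036 with a dye term, −0.0050 with degree 1 besides, −0.0069 without spatial loess, −0.0044 with deposited ratios and −0.038 to −0.0011 with a tumor left out. With a tumor left out, that of other inhibitors of apoptosis was −0.0033 to 0.12 and of deubiquitinases 0.053 to 0.17. It was −0.014 to 0.019 for MAP kinases and AP-1 and 0.17 to 0.32 for NF-κB and IκB genes. In the same settings it was −0.028 to 0.018 for other IκB kinase genes, −0.011 to 0.017 for TNF receptors and −0.014 to 0.0031 for RANK adaptors. For other TRAFs it was 0.033 to 0.063. For survival genes it was −0.043 to 0.056, and 0.046 with a dye term. Without a filter on dim probes, the median of NF-κB and IκB genes was 0.12. Median centring moved the medians to −0.091 (other TRAFs), −0.11 (other inhibitors of apoptosis), −0.13 (other IκB kinase genes), −0.19 (ubiquitin ligases), −0.060 (deubiquitinases), 0.051 (NF-κB and IκB genes), −0.12 (TNF receptors), −0.17 (MAP kinases and AP-1), −0.14 (RANK adaptors) and −0.18 (survival genes). It turned *Traf4* to −0.091, *Birc5* to −0.042 and *Cbl* to −0.056, and processed intensities turned *Traf3ip1* to 0.011.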
